A study of Mus musculus with 4 samples.

Results

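Lmo2, Ldb1, Tal1, Lyl1, Gata1, Gata2, Zfpm1 and Cbfa2t3 encode the Lmo2, Tal1 and GATA transcription complex of blood cells and its close cofactors. Their probes were taken from the scanner files as the non-control probes whose annotated gene name equalled one of these 8 names, which gave 11 probes on 20 spots, of 41174 non-control probes in all. In 5 genes a single probe was present, and Ldb1, Gata2 and Cbfa2t3 had 2 each. Of the 11 probes, 10 were bright enough to be tested, from 7 genes. The probe of Gata1 was not.

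Lmo2 is a small LIM-domain protein that binds no DNA itself and bridges the other subunits. On one side of it stands a helix-loop-helix protein, Tal1 or its paralog Lyl1, paired with an E protein on an E-box, and on the other a GATA factor on a GATA site, while Ldb1 holds the assembly together and can join distant elements by pairing with itself. The complex is known for its part in blood stem cells and in the erythroid, megakaryocytic and mast cell lineages, and several of its genes are normally turned down as granulocytes mature. Lmo2 is a reported target of miR-223, a microRNA of myeloid cells that lowers transcripts it pairs with.

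The samples were immature granulocytes, the precursors of neutrophils, obtained by cell sorting from bone marrow of miR-223 KO mice (2 arrays) and wild-type mice (WT, 2 arrays), all of them male and of the C57BL/6 strain. Each sample was hybridised to a 1-colour Agilent array. The comparison asks which transcripts differ when miR-223 is absent. The labels give neither the age of the mice nor the markers of the sort, nor whether each replicate is a different animal. The p-values therefore reflect only how far these particular samples vary, and that variation may be technical. Precision is limited by having 4 arrays, and an exact two-sided test of 2 arrays against 2 cannot give a p below 0.333.

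The mature miR-223-3p sequence is shown because its seed, bases 2 to 8 in capitals, defines the microRNA that the KO mice lack. It is read from RefSeq (GRCm38.p6, chrX:96242884-96242905, plus strand).
miR-223-3p: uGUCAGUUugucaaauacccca
The probe of Lmo2 and 1 probe of Ldb1 are shown next, as the member with the largest log2 difference between the genotypes and its bridging partner that hardly differed. Both are 60 bases in the sense of the transcript, as the deposited files give them, with mm9 coordinates chr2:103816341-103821054 (plus strand) and chr19:46107610-46107669 (minus strand).
Lmo2: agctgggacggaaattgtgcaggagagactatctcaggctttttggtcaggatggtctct
Ldb1: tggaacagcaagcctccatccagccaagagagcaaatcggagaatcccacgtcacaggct
The Lmo2 probe spans 4714 bases of the genome, so it crosses an intron and reads spliced transcript. The complement of the seed, AACTGAC, was in 0 of the 11 member probes and in 153 of the 41174 probes (0.372%). The word ACTGAC was likewise in 0 member probes, and in 1.41% of all. These words were searched on the strand of the probe only, and the part of the Lmo2 transcript that miR-223 is reported to pair with was not analysed here.

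All 4 arrays lay on 1 slide with 1 scan date. Between 59.6% and 62.9% of the spots of an array were well above background and 0 were saturated. Log2 signals correlated at 0.993 between the KO arrays and 0.994 between the WT arrays, and at 0.988 to 0.990 across genotypes. The median probe differed by 0.14 between the KO arrays, by 0.13 between the WT arrays and by 0.20 between the genotype means (absolute log2 differences). Neutrophil precursor transcripts were bright on every array: Mpo, the primary granule myeloperoxidase, had log2 differences (KO minus WT) of 0.05 ± 0.13 and Camp, a secondary granule peptide, of -0.05 ± 0.13 (SE). No probe carries the name Mir223 (0 of 41174), so the deleted gene could not check the labels.

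Signals are given as relative signal, the background-subtracted processed signal of a probe divided by the 75th percentile of its array, on a linear scale. Differences are log2 relative signal, KO minus WT. Relative signals of different probes cannot be set against each other, since probes differ in how well they hybridise. Sums of relative signal over a list are therefore weighted toward the probes that read brightest. The share of a gene in such a sum shows what carries the sum and is no measure of transcript amount.

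Lmo2 transcript signal was higher in the KO granulocytes and Ldb1 signal was close to equal. Lmo2 had processed signals of 915 and 1093 in the miR-223 KO arrays, against 458 and 459 in the WT arrays. The scanner software put the error of these signals at 91.5 and 109 in KO and 45.9 and 45.9 in WT. As relative signal these were 2.53 and 2.59 in KO and 1.46 and 1.48 in WT. Both KO arrays lay above both WT arrays, and the replicates of each genotype almost coincided, 0.03 apart on the log2 scale in KO and 0.02 in WT. The means were 2.56 ± 0.0416 in KO and 1.47 ± 0.0139 in WT (SD, n = 2 each). The log2 difference was 0.80 ± 0.08 (SE), or 1.74-fold, with a 95% interval of 0.57 to 1.03, 1.49-fold to 2.04-fold. Among all tested probes, 2.44% had a difference at least this high.

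The Lmo2 difference did not pass limma's test over all probes at an adjusted p under 0.05 (unadjusted p = 0.000614, adjusted p = 0.0895). In that fit 0 of the 25749 tested probes passed, a share of 0%, so 0 of the 10 member probes passed as well. The smallest adjusted p of any probe was 0.0874, while 6342 probes, 2 of them members, had an unadjusted p under 0.05. When the spread that limma shares between probes was allowed to depend on their brightness, 2480 probes passed, and Lmo2 was among them with an adjusted p of 0.00582. In that version 5.03% of all probes passed as higher in KO, and of the 10 member probes 2 did, Lmo2 and Tal1. At an unadjusted p under 0.05 the same 2 were higher in KO, against 11.1% of all probes. In bulk RNA such as this, fewer cells that carry a transcript and less of it in each cell cannot be told apart.

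Ldb1, which dimerises and binds Lmo2 through its LIM-interaction domain, was read by 2 probes a short way apart on chromosome 19. The probe printed above, A_51_P384756, had relative signals of 2.91 and 2.97 in KO and 2.99 and 2.92 in WT. The genotypes overlapped, and the log2 difference was -0.01 ± 0.08 (limma, adjusted p = 0.958). Its 95% interval, 0.849-fold to 1.16-fold, leaves out the 1.49-fold lower bound of Lmo2. The other probe, A_51_P384754 (chr19:46107487-46107546, mm9), had relative signals of 2.40 and 2.56 in KO and 2.27 and 2.61 in WT. Here too the genotypes overlapped, with a log2 difference of 0.03 ± 0.11 and an interval of 0.820-fold to 1.27-fold (limma, adjusted p = 0.898). The sign of the first probe turns with the median scaling of the arrays (0.07).

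**Figure D1:**
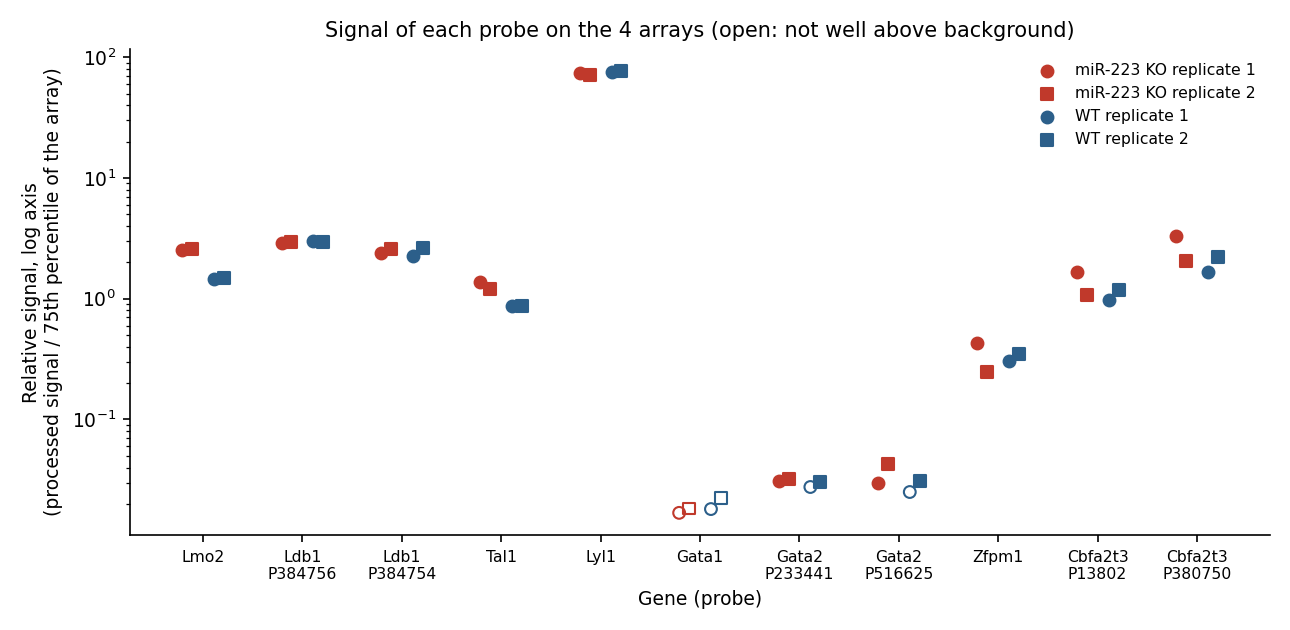
Relative signal (log axis) of each of the 11 probes on the 2 miR-223 KO arrays (red) and the 2 WT arrays (blue), 1 point an array, with open points where the probe was not well above background. Lmo2 and Tal1 show the KO points above the WT points with a clear gap, the Lyl1 points lie at 71.3 to 73.3 in KO and 76.0 to 76.3 in WT, and the Gata1 points are all open.

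Of the helix-loop-helix partners, Tal1 had higher signal in KO and Lyl1 was close to equal. Tal1, also called SCL, is needed to start blood formation and later for red cells and platelets. Its probe (chr4:114744223-114744283, mm9, plus strand) had processed signals of 493 and 505 in KO, against 274 and 273 in WT. Relative signals were 1.36 and 1.20 in KO and 0.872 and 0.879 in WT. Both KO arrays were above both WT arrays, with the KO replicates 0.19 apart on the log2 scale and the WT replicates 0.01. The log2 difference was 0.55 ± 0.10, or 1.46-fold, with a 95% interval of 1.19-fold to 1.78-fold. It did not pass limma over all probes (unadjusted p = 0.0065, adjusted p = 0.105) and passed with the brightness-dependent spread (adjusted p = 0.0253). A difference at least this high was found in 5.98% of all tested probes.

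Lyl1 binds the same partners as Tal1 and stands in for it in adult blood stem cells. Its probe (chr8:87228531-87228590, mm9, plus strand) had relative signals of 73.3 and 71.3 in KO and 76.0 and 76.3 in WT, far above background on all arrays. Both KO arrays were just below both WT arrays. The log2 difference was -0.07 ± 0.08, or 0.949-fold, with an interval of 0.811-fold to 1.11-fold (limma, adjusted p = 0.605). With the arrays scaled by their medians the Lyl1 difference was 0.00, so its direction depends on the scaling. The intervals of Tal1 and Lyl1 do not overlap, though the difference between the 2 genes was not tested.

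The GATA factors were at or near the background of the arrays. Gata1, the master regulator of red cell and megakaryocyte genes that also serves eosinophils and mast cells, was read by 1 probe (chrX:7536849-7536908, mm9, minus strand) printed on 10 spots of each array. Mean relative signals over the 10 spots were 0.0172 ± 0.00361 and 0.0187 ± 0.00399 on the KO arrays, and 0.0190 ± 0.00560 and 0.0227 ± 0.00388 on the WT arrays (SD over spots, which are technical). Of the 10 spots, 0 and 5 were well above background in KO and 0 and 4 in WT, so the probe did not count as well above background on any array and has no fold change. The lowest relative signals that any probe reached while well above background were 0.0213 and 0.0177 in KO and 0.0233 and 0.0199 in WT. The Gata1 means lay below that in 2 arrays, KO replicate 1 and WT replicate 1, and just above it in the other two.

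**Figure D2:**
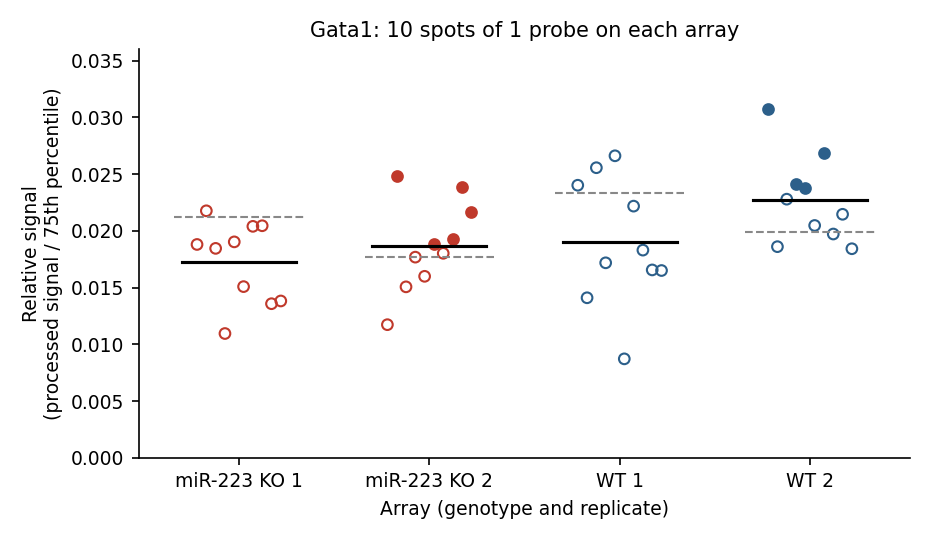
Relative signal of each of the 10 Gata1 spots on the miR-223 KO arrays (red) and the WT arrays (blue), filled where a spot was well above background, with the mean of the spots as a solid line and the lowest signal of any probe well above background as a dashed line. The spots spread from 0.00872 to 0.0308 over the 4 arrays, and the means of the genotypes lie within that spread.

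Gata2, the GATA factor of stem cells, early progenitors and mast cells, was read by 2 probes on chromosome 6. Probe A_52_P233441 (chr6:88156362-88156421, mm9, plus strand) had processed signals of 11.1 and 13.5 in KO, against 8.68 and 9.51 in WT, with scanner errors of 2.13 and 2.17 in KO and 2.06 and 1.79 in WT. Probe A_51_P516625 (chr6:88156835-88156894) had 10.8 and 18.0 in KO, against 7.89 and 9.66 in WT. Both probes were well above background on both KO arrays and on WT replicate 2, and not on WT replicate 1. After scaling, the first probe had relative signals of 0.0308 and 0.0320 in KO and 0.0276 and 0.0306 in WT, the KO arrays above the WT arrays by less than the gap between the WT replicates. The second had 0.0300 and 0.0427 in KO and 0.0251 and 0.0311 in WT, with overlap. Log2 differences were 0.11 ± 0.10 and 0.36 ± 0.23 (limma, adjusted p = 0.531 and 0.393), with intervals of -0.16 to 0.38 and -0.27 to 0.99. Without KO replicate 2 the second was 0.10, without KO replicate 1 it was 0.61 and without WT replicate 1 it was 0.20. The sign of both turned with another background correction (normexp fitted on the non-control spots), to -0.25 and -0.08.

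The cofactors Zfpm1 and Cbfa2t3 varied more between the KO arrays than between the genotypes. Zfpm1, or FOG1, is the zinc finger partner through which Gata1 acts on many of its genes. Its probe (chr8:124861053-124861112, mm9, plus strand) had relative signals of 0.428 and 0.249 in KO and 0.306 and 0.348 in WT. The KO arrays enclosed the WT arrays and were 0.78 apart on the log2 scale. The log2 difference was 0.00 ± 0.29 with an interval of 0.568-fold to 1.77-fold (limma, adjusted p = 0.995), which leaves room for changes in either direction. Without KO replicate 1 it was -0.39, without KO replicate 2 it was 0.39 and without WT replicate 1 it was -0.09.

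Cbfa2t3, or ETO2, is a corepressor that joins the complex through its E protein and keeps its target genes in check until differentiation. Its 2 probes on chromosome 8 (minus strand, mm9) ranked the 4 arrays in the same order. Probe A_52_P13802 (chr8:125154077-125154136) had relative signals of 1.68 and 1.07 in KO and 0.969 and 1.19 in WT. Probe A_51_P380750 (chr8:125154010-125154069) had 3.28 and 2.05 in KO and 1.66 and 2.20 in WT. In both, KO replicate 1 was the highest array and KO replicate 2 lay between the WT arrays. The log2 differences were 0.32 ± 0.26 and 0.44 ± 0.29 (limma, adjusted p = 0.492 and 0.409), with intervals of -0.41 to 1.05 and -0.37 to 1.25. Without KO replicate 1 they were 0.00 and 0.10, without KO replicate 2 they were 0.64 and 0.78, and without WT replicate 1 they were 0.18 and 0.24. The sequences of these probes lie close together, so they are not independent readings.

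Over the 10 tested probes, both KO arrays lay above both WT arrays in 3 (Lmo2, Tal1 and the first Gata2 probe), where 26.3% of all tested probes did so. Both KO arrays lay below in 1 (Lyl1), against 32.8% of all. In the other 6 the genotypes overlapped. The log2 difference was above 0 in 8 of the 10 probes, against 45.3% of all probes, and the median was 0.22 over the members against -0.03 over all. Probes of 1 gene share their source, so these counts describe the array and do not test the complex.

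**Figure D3:**
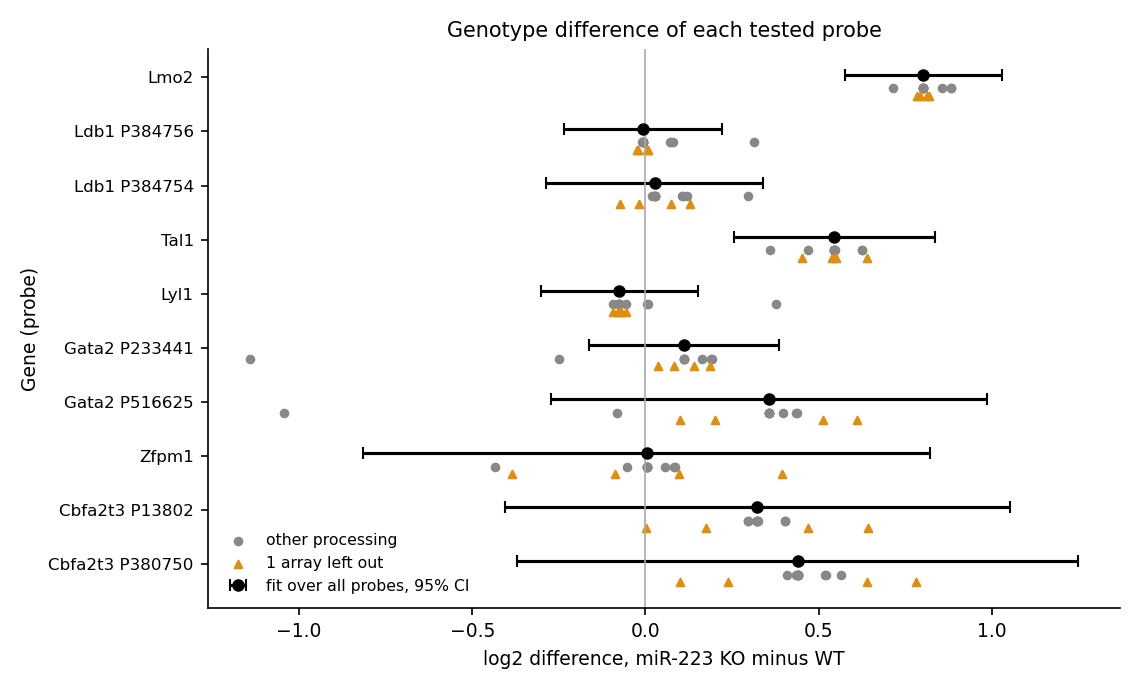
Log2 difference (miR-223 KO minus WT) of the 10 tested probes, with the 95% interval from limma (black), the values under other processing (grey) and with 1 array left out (orange triangles). Lmo2 (0.72 to 0.88 over all settings) and Tal1 (0.36 to 0.64) stay to the right of 0. The points of both Cbfa2t3 probes do so too (0.002 to 0.64 and 0.10 to 0.78), though their 95% intervals include 0. The Ldb1, Lyl1, Gata2 and Zfpm1 points fall on both sides.

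The genes whose pattern over the 4 arrays was most like that of Lmo2 were found by the Euclidean distance between log2 profiles, each centred on its own mean, over the 4 arrays and 16978 gene names. The 5 nearest with a gene symbol were Parp14, a mono-ADP-ribosyltransferase (distance 0.0182), Trim30d, of the Trim30 family (0.0239), Gfpt1, the entry enzyme of the hexosamine pathway (0.0284), Tgm2, a transglutaminase (0.0389), and Try5, a trypsin (0.0525). Their log2 differences were 0.80 to 0.82. Tal1 was the nearest member at 0.301, with 484 gene names closer to Lmo2. Gata2 followed at 0.596, Cbfa2t3 at 0.678, Ldb1 at 0.811, Lyl1 at 0.879 and Zfpm1 at 0.991, with 2782 to 11252 gene names closer. With 4 arrays such a distance mostly reads the size of the genotype difference.

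GATA sites in the promoters of the members were looked for because the complex is known to act on its own genes. RefSeq start windows (GRCm38.p6, 250 bases before to 50 after a start) covered 7 of the 8 genes in 12 windows. The gene without a window was Lmo2, so its promoter was not searched. The words searched were GATAA and GATAG with an A or a T directly before them, on either strand. Such a word was in 3 of the 12, against 29.8% of all 32851 windows. These 3 belong to Tal1, Ldb1 and Cbfa2t3. The spacing typical of the complex, CTG and GATA with 9 bases between on either strand, was in 1 window, of Cbfa2t3, against 2.51% of all. The 250 bases before the start are printed for Tal1 (chr4:115056176-115056425, plus strand) and for Cbfa2t3 (chr8:122699110-122699359, minus strand). Besides Lmo2, Tal1 was the only member that passed with the brightness-dependent spread, and Cbfa2t3 holds the joint spacing. Capitals mark the GATA word and, in Cbfa2t3, the stretch that runs from it to the CAG that completes the spacing.
Tal1: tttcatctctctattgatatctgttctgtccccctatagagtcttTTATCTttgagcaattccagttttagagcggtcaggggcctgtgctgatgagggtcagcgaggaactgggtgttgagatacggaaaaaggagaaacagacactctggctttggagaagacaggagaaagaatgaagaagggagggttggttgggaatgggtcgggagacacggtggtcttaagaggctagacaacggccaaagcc
Cbfa2t3: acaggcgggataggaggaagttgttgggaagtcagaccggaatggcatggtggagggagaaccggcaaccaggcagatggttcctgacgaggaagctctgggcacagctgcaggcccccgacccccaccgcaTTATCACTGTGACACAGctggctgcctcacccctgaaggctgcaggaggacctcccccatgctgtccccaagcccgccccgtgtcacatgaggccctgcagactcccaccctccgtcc
A match of letters is a description of the window and not a bound site.

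Of 18 genes for paralogs and partners of the members, 13 were tested, each by its brightest probe. In limma 0 passed, and with the brightness-dependent spread 1 was higher in KO and 1 lower, against 5.88% and 4.56% of all genes. The higher one was Tal2, a paralog of Tal1 that also pairs with E proteins, with relative signals of 0.546 and 0.650 in KO and 0.338 and 0.373 in WT. Its log2 difference was 0.75 ± 0.13 (limma, adjusted p = 0.0987, or 0.0223 with the brightness-dependent spread). The lower one was Lmo1, the closest paralog of Lmo2, with 14.3 and 14.8 in KO and 18.6 and 18.2 in WT. The Lmo1 difference was -0.34 ± 0.08 (limma, adjusted p = 0.129, or 0.0299), opposite in sign to that of Lmo2. Cbfa2t2, a paralog of Cbfa2t3, had a difference of -0.24 ± 0.08 and the E protein gene Tcf4 one of 0.55 ± 0.19, neither of which passed in either version. The paralogs Lmo3, Gata3, Zfpm2 and Runx1t1 were not well above background on any array. The median over the 13 was -0.12, against -0.02 over the brightest probes of all genes, and 0.12 with normexp fitted on all spots.

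Among 14 corepressor and chromatin genes that work with the complex, 13 had a probe and all 13 were tested. Both KO arrays lay below both WT arrays in 6 (30.5% of all genes did so) and above in 2, and 0 passed in either version of limma. Rbbp4, a histone-binding subunit of deacetylase complexes, had the smallest p, with a log2 difference of -0.25 ± 0.09 (limma, adjusted p = 0.189). The median was -0.06, and 0.0239 with the arrays scaled by their medians, so its direction depends on the scaling. Of 11 other tested transcription factors of blood, Cebpa, the driver of granulocyte commitment, had 2.55 and 2.16 in KO and 1.78 and 1.64 in WT, a difference of 0.46 ± 0.12. Fli1, an ETS factor that often sits beside the complex, had 24.6 and 25.0 in KO and 30.9 and 29.5 in WT, a difference of -0.28 ± 0.08. Both passed only with the brightness-dependent spread (limma, adjusted p = 0.0444 and 0.0463). That made 1 of the 11 higher and 1 lower, against 5.88% and 4.56% of all genes.

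Transcripts of lineages in which the complex is active did not share a direction. Of 16 erythroid genes, 10 were tested and 9 had differences below 0 (52.4% of all genes did so), with a median of -0.66. The relative signals of the 15 with a probe, tested or not, summed to 37.2 and 29.3 in KO and 50.01 and 48.6 in WT. Most of these sums came from the globin gene Hba-a1, with 32.1 and 24.7 in KO and 43.8 and 42.3 in WT. With the brightness-dependent spread 4 passed as lower in KO and 0 as higher, against 4.56% and 5.88% of all genes. Hemgn, an erythroid nuclear protein, had 0.243 and 0.260 in KO and 0.421 and 0.451 in WT, a difference of -0.79 ± 0.09 (limma, adjusted p = 0.0897). Klf1, a defining erythroid transcription factor, was above background on 1 of the 4 arrays. Of 10 megakaryocyte genes, 6 were tested, all with differences above 0 and a median of 0.55. Over all 10, tested or not, the sums were 2.37 and 3.23 in KO and 1.47 and 1.69 in WT. Ppbp, which was not tested, made up 0.233 of the sum on KO replicate 2. Gp9, of the platelet von Willebrand factor receptor, was the one that passed with the brightness-dependent spread, with 1.43 and 1.68 in KO and 0.678 and 0.678 in WT, a difference of 1.19 ± 0.12 (limma, adjusted p = 0.00528 there and 0.0895 without it). The other 5 megakaryocyte genes overlapped between the genotypes, and the list median was 1.04 without KO replicate 1, 0.03 without KO replicate 2, -0.02 with normexp fitted on the non-control spots and -0.64 with normexp fitted on all spots. Of 10 mast cell and basophil genes, 8 were tested, 4 with differences above 0 and 4 below, with a median of 0.03. Il1rl1, the IL-33 receptor, had the smallest p, with a difference of 1.14 ± 0.12 (limma, adjusted p = 0.0897, or 0.00969 with the brightness-dependent spread). Prss34, a basophil protease, had a difference of -0.92 ± 0.28 and Fcer1a, of the IgE receptor, one of -0.63 ± 0.30, neither of which passed in either version. The defining mast cell gene Cpa3 had a difference of -0.01 ± 0.10.

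Markers of other cell types differed from list to list in the samples in which Lmo2 and Tal1 were measured, and 0 of the listed genes passed limma over all probes. With the brightness-dependent spread, 8 of 11 monocyte and 5 of 6 eosinophil markers passed as higher in KO. So did 2 of 7 stem and progenitor and 3 of 13 neutrophil precursor markers, and 0 in these lists passed as lower. Of 8 T and B cell markers 1 passed as higher and 1 as lower, and 0 of 4 endothelial markers passed. Over all genes, 5.88% passed as higher and 4.56% as lower. The sums that follow take in every listed gene with a probe, tested or not. Of 11 monocyte markers, all 11 were tested and both KO arrays lay above both WT arrays in 10, with sums of 122 and 106 in KO and 68.2 and 68.5 in WT and a median difference of 0.76. Of 8 eosinophil markers, 6 were tested, 5 lay above and 1 below, with sums of 19.6 and 18.1 in KO and 13.03 and 11.2 in WT. Of 10 stem and progenitor markers, 7 were tested and 4 lay above, with sums of 46.8 and 49.2 in KO and 31.5 and 35.3 in WT. Ly6a alone made up 31.5 and 37.1 of these sums in KO and 22.9 and 26.9 in WT. Cd34, of early progenitors, had a difference of 0.89 ± 0.19, while Kit had 2.43 and 2.44 in KO and 2.40 and 2.17 in WT, a difference of 0.09 ± 0.10. Of 15 neutrophil precursor markers, 13 were tested, and both KO arrays lay above both WT arrays in 5 and below in 3. The early granule genes Prtn3, Ctsg and Elane had the smallest p, with differences of 0.72, 0.63 and 0.50, while Mpo, also a primary granule gene, had 0.05. S100a9, of mature neutrophils, had -0.20 and Ltf -0.44, while Mmp8 had 0.55 and Mmp9 0.29. Over the 13, 8 differences were above 0 and 5 below. The list median was 0.11, and -0.02 without WT replicate 1. Over all genes, both KO arrays lay above both WT arrays in 28.0% and below in 30.5%. Endothelial markers, 4 tested of 6 and 1 of them without overlap, had sums of 0.420 and 0.3204 in KO and 0.317 and 0.292 in WT. Of 9 T and B cell markers, 8 were tested and 6 had differences below 0, with a median of -0.20, and 0.10 without KO replicate 2. Their sums were 9.40 and 7.36 in KO and 6.82 and 7.41 in WT, of which the B cell receptor gene Cd79b made up 7.58 and 6.23 in KO and 4.81 and 5.16 in WT. Cd3d, of the T cell receptor complex, had 0.299 and 0.301 in KO and 0.801 and 0.820 in WT, a difference of -1.43 ± 0.08 (limma, adjusted p = 0.0874, or 0.00285 with the brightness-dependent spread). The genotypes overlapped in Cd3e and Cd3g of the same complex, with differences of -0.22 ± 0.18 and 0.37 ± 0.30. The part of these cell types in the Lmo2 and Tal1 differences was not tested.

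**Figure D4:**
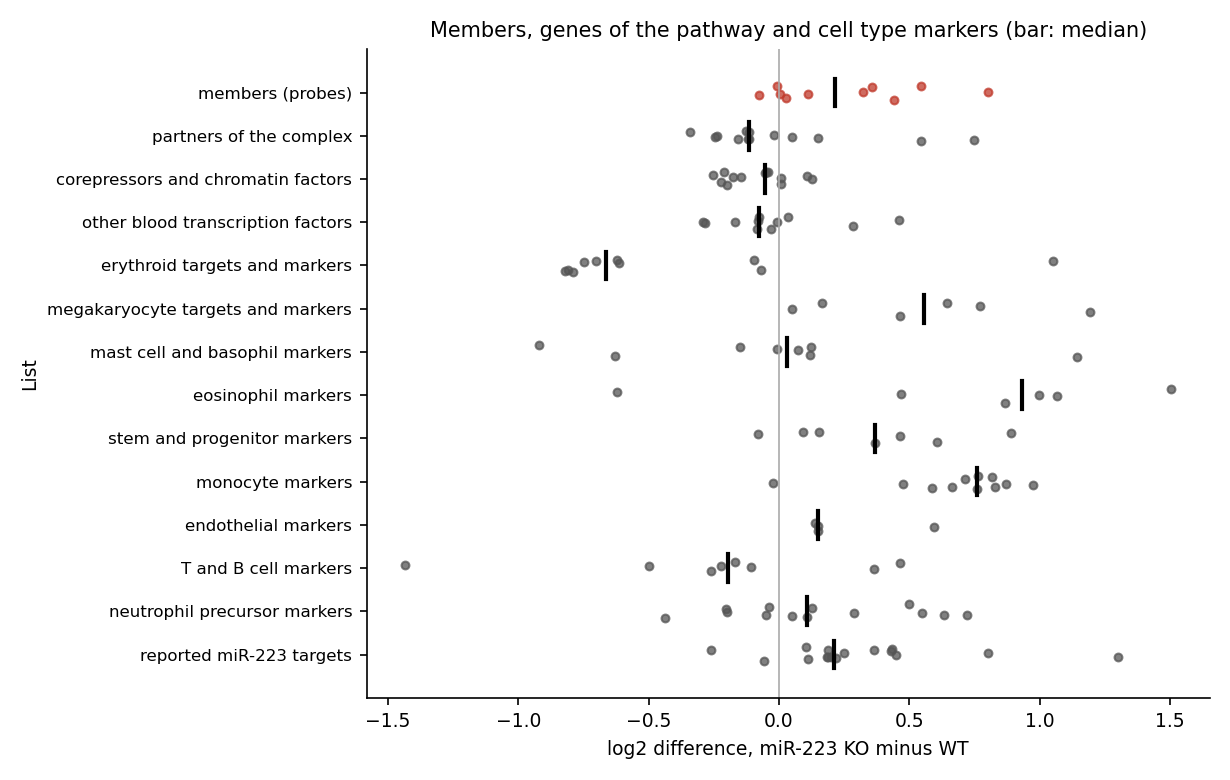
Log2 difference (miR-223 KO minus WT) of the 10 member probes (red) and of the brightest tested probe of each gene in 13 lists (grey), 1 point a probe, with the median as a black bar. The members have a median of 0.22, the erythroid list lies mostly left of 0 (-0.66) and the monocyte list mostly right (0.76).

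Lmo2 was also set beside the other reported miR-223 targets, a list drawn from general knowledge and including Lmo2. Of 18 such genes, 16 were tested, and both KO arrays lay above both WT arrays in 11 and below in 1, against 28.0% and 30.5% of all genes. In limma 0 passed, and with the brightness-dependent spread 6 did, all higher in KO, where 5.88% of all genes passed as higher. Rhob, a small GTPase, had 4.90 and 4.94 in KO and 2.06 and 1.93 in WT, a difference of 1.30 ± 0.09, the smallest p of the list. Lmo2 came next, followed by Cbx5, a heterochromatin protein, at 0.45 ± 0.09 and Igf1r, a growth factor receptor, at 0.43 ± 0.09. The median over the list was 0.21. Of the members, Lmo2 is the only one in this list.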

How the data were processed

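Total RNA of 4 sorted samples was labelled with Cy3 and each hybridised alone, per the labels. The deposited intensity values are background-subtracted processed signals of single spots, read with Agilent Feature Extraction 10.5.1.1 per the file headers, and are not scaled between arrays. The authors' deposited table holds log2 values; it tracked the scanner values with a correlation of 0.9999 or more and a slope of 1.00, and every column had a median of 4.68, which is how its scale and centring were inferred. Probe annotation is on mm9.

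Processed signals were divided by the 75th percentile of the 43379 non-control spots of their array (361 and 422 in KO, 314 and 310 in WT), turned to log2 and averaged over the spots of a probe. Probes well above background, on most of their spots, on at least 2 of 4 arrays were kept, 25749 of 41174. limma 3.58.1 in R 4.3.3 (lmFit, eBayes, Benjamini-Hochberg over all probes, no replicate block, prior degrees of freedom 1.99) compared KO with WT. The alternative called the brightness-dependent spread is eBayes with an intensity trend. The procedure was also run on simulated data with independent normal noise, as a self-test of the code. Its outcome is not used for any result above.

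Members are named as in the files. Listed genes were named through a RefSeq gene table (GRCm38.p6), by accession for 26933 probes, by current symbol for 5570 and by synonym for 894, and 7777 kept the file's name. Listed genes are represented by their brightest tested probe. Sums of relative signal also take in listed genes that were not tested, each by its brightest probe. Of 154 listed genes in 13 lists, 124 were tested, and Hdac1, Cebpe, Hbb-b1, Ear2 and Ly6g matched no probe name. The members and lists were chosen with earlier results of these data known. The genes named are all members, up to 4 per list with the smallest p, the 5 nearest to Lmo2, and fixed defining markers, of which 1 is not reported here. Sequences are from the deposited files and RefSeq. The alternatives changed the background correction, the scaling, the starting values, the filter, the probe rule, the variance prior, the block and the arrays used, 1 at a time.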

Additional observations from a re-analysis of the deposited data

How the results depend on the processing

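Over 16 alternative settings the member probes gave 145 log2 differences, of which 19 changed sign. The Lmo2 difference stayed between 0.72 and 0.88 in its 15, with adjusted p between 0.0032 and 0.473 and under 0.05 in 2, and Tal1 between 0.36 and 0.64 in its 15, with adjusted p between 0.0199 and 0.542. Of all probes 0 passed in the fit as reported, 3545 with normexp fitted on non-control spots, 106 with median scaling, 267 from the deposited table, 128 among probes well above background on 4 arrays and 2480 with the intensity trend. Member probes that passed were 0 as reported, 2 with normexp on non-control spots and 2 with the trend, Lmo2 and Tal1 in both. Listed genes that passed were 0 as reported and 43, 2, 6, 3 and 36 under those 5 settings. Under normexp on all spots, quantile normalization, no filter, outlier spots left out, 1 probe a gene, the mean over probes and each array left out, 0 probes passed. Normexp on all spots moved the median of all probes to -0.31, against -0.03, and gave Ldb1 0.31 (A_51_P384756), Lyl1 0.38, Gata2 -1.14 and -1.04 and Zfpm1 -0.44. Normexp on non-control spots gave the same Ldb1 probe 0.0804, Gata2 -0.249 and -0.0827 and Zfpm1 -0.0529. With median scaling and from the deposited table, Ldb1 had 0.0710 and 0.0734 and Lyl1 0.00399 and 0.00639. Leaving out 1 array, the Ldb1 probes ranged from -0.0242 to 0.00834 and from -0.0743 to 0.128, and Zfpm1 from -0.39 to 0.39. The cause of these changes was not tested. List medians moved by more than the spread between replicates in 24 of 195. The replicate numbers are not said to pair samples, and deviations of the same-numbered arrays correlated at 0.03 across probes. With the replicate number as a block, 0 probes and 0 members passed, and Lmo2 had 0.80. Gata1 and Gata2 are limited by signal close to background.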
